A study of Mus musculus with 24 samples.

Results

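The *Kcn* genes encode the pores and helper subunits of mouse potassium channels, and 41 of them were measured well enough here to be described across cultured astrocytes and microglia. Members were all genes whose symbol starts with *Kcn*, 1 or more family letters and a number, whatever follows, except *Kcnj10*. Of the 24411 genes in the deposited tables, 97 symbols started so. Of these, 55 stayed under a mean of 10 normalized counts in all 6 tables, and *Kcnj10* was left out by name. The members just inside that limit were *Kcnj11*, with a highest table mean of 11.0 normalized counts, *Kcnk3* (11.8) and *Kcnq3* (12.7). Among those outside it were *Kcnab1* (7.88), *Kcnj4* (6.51) and *Kcnb2* (6.15). The 41 members comprise 18 voltage-gated pore subunits, 6 auxiliary subunits, 3 inward rectifiers, 7 two-pore-domain channels, 6 channels activated by calcium or sodium, and 1 non-coding transcript, *Kcnq1ot1*.

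The study worked with a mouse model of amyotrophic lateral sclerosis and asked whether glia that carry the disease allele respond differently to activation. Primary postnatal astrocytes and microglia came from wild-type (WT) mice and from mice with SOD1G93A, a mutant human *SOD1* transgene kept on C57BL/6J. Its human promoter is active in most cell types, so the genotype is not limited to the glia measured. Bulk RNA-seq of 7 conditions with 3 libraries each was used. The WT and SOD1G93A astrocytes were quiescent (treated with PBS) or activated with 3 agents together, namely C1q (dose 400 ng/mL), TNFα (dose 30 ng/mL) and IL-1α (dose 3 ng/mL). The WT microglia were quiescent (PBS) or given lipopolysaccharide (LPS, 50 ng/mL), and the SOD1G93A microglia used here were given LPS. All were kept in serum-free medium, with TGF-β2 and IL-34 in that of the microglia and HBEGF in that of the astrocytes. Astrocytes came from forebrain by panning on coated plates, and microglia from whole brain of older pups by magnetic beads. Quiescent SOD1G93A microglia (3 libraries) were not analysed here, so genotype was compared in microglia under LPS alone.

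Potassium channels let potassium ions leave or enter the cell along their electrochemical gradient and so set the resting membrane potential. Voltage-gated channels open on depolarization, inward rectifiers and two-pore-domain channels carry the current at rest, and calcium-activated channels tie the potential to calcium signals. In astrocytes, inward rectifiers and two-pore channels take up and pass on the potassium that neurons release, while in microglia potassium efflux is a known step in the assembly of the NLRP3 inflammasome.

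The shallowest library held 2016139 reads on genes, the deepest 11570122 and the median one 5098168. The 3 WT quiescent astrocyte libraries had 2016139, 3637657 and 9258718, and the 3 WT activated ones had 5047999, 6768201 and 5749391. Values with a test are normalized counts, that is reads divided by a size factor of the libraries compared, and are on 1 scale only within a comparison. Levels across all conditions are reads in counts-per-million (CPM), taken over all reads on genes, and levels of different genes are compared after dividing these by exon length in kilobases (RPKM). A gene was tested where its mean over the libraries of a comparison was at least 10, and called where limma gave an adjusted p under 0.001 with a fold change over 2. Named in detail are members that led a comparison or a level ranking, and *Kcnd1*, *Kcnh2*, *Kcnj11*, *Kcnq1ot1* and *Kcnt1*, which were picked once values had been seen. The labels do not say whether the 3 libraries of a condition come from separate animals or cultures, and a list of replicates that the authors mention was not among the sources used here. The p-values therefore measure the spread between these libraries, which may be technical.

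Summed over the 41 members, WT quiescent astrocytes had 1851, 1858 and 1763 CPM and WT quiescent microglia had 579.8, 526 and 569. Every astrocyte library lay above every microglial one, and the leading gene was *Kcnc1* in astrocytes (42.0% of the summed reads) and *Kcnj2* in microglia (31.3%). Activated WT astrocytes had 1028, 1049.6 and 1099, all below the quiescent ones, and *Kcnc1* made up 26.2% of the sum. Microglia under LPS had 171, 242 and 231 CPM in WT and 252, 253 and 304 in SOD1G93A, again all below the quiescent WT libraries, and there the leading gene by mean was *Kcna3*. In WT LPS replicate 1 it had 22.9 CPM, under *Kcnk6* (32.8), *Kcnab2* (32.6) and *Kcnj2* (28.8). SOD1G93A astrocytes had 1986, 2078 and 2174 when quiescent and 1187, 1124 and 1154 when activated. In a culture measured in bulk, fewer cells that express a gene and less RNA of it per cell cannot be told apart.

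Per length, the highest member in WT quiescent astrocytes was *Kcnc1*, at 81.0 ± 1.85 RPKM (mean ± SD, n = 3). It was followed by *Kcnip3* (34.7 ± 2.20 RPKM) and *Kcnd3* (29.7 ± 1.60 RPKM), which stood clear of *Kcnc1* and of the next member. Then came *Kcnj16* (16.3 ± 0.826 RPKM), *Kcnk2* (10.8 ± 0.596 RPKM) and *Kcna2* (10.5 ± 1.73 RPKM), of which the last pair did not differ beyond their spread. In WT quiescent microglia the order began with *Kcnj2* (32.1 ± 3.12 RPKM) and *Kcnk6* (29.6 ± 2.12 RPKM), which did not differ beyond their spread, and went on with *Kcnk13* (20.2 ± 0.195 RPKM), *Kcna3* (15.6 ± 2.68 RPKM), *Kcnn4* (13.1 ± 0.374 RPKM) and *Kcnab2* (7.90 ± 0.297 RPKM). *Kcna3* and *Kcnn4* lay within 1 SD of each other, and the value of *Kcna3* rests on a short exon model of 1902 bases. Below these 6, the next microglial member was *Kcnma1* at 1.42 ± 0.0922 RPKM, a value that rests on a long exon model. Under LPS the highest was *Kcna3*, at 30.8 ± 16.2 RPKM in WT and 38.7 ± 1.33 in SOD1G93A.

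Set against each other in WT quiescent cells, 33 members were tested, of which 6 were called higher in microglia, where 22.5% of all 12064 genes tested were called, and 25 were called lower, where 24.8% were. A member that passed the minimum only through the cell type where it is high had to differ, so these counts describe which cell type holds which gene. Medium, isolation, brain region and age differed with cell type and cannot be told apart from it. The median log2 difference of the 33 was -3.95 (-0.036 over all genes tested), and -3.92 with the 3 untested members at 0 reads in microglia added at their bound. With at least 10 normalized counts required in every library, 6 members were tested and 3 were called higher and 2 lower in microglia, where 3855 of all 9702 genes tested were called in either direction. The median of these 6 had the opposite sign, at 0.95 (0.10 over all genes tested). *Kcnj2* had 24.2, 37.2 and 33.9 normalized counts in astrocytes and 1044, 920.0 and 1090.2 in microglia (log2 fold change 4.98, adjusted p 7.6e-10). *Kcnk6* had 7.46, 9.56 and 15.8 and 764, 697 and 686 (log2 fold change 5.97, adjusted p 2.6e-09). For both, and for *Kcnk13*, *Kcnn4* and *Kcna3*, the lowest microglial library was above the highest astrocyte library. *Kcnk13* had 5.59, 10.6 and 13.6 in astrocytes and 363, 369 and 370.4 in microglia (log2 fold change 5.15, adjusted p 2.3e-08), and *Kcnn4* had 14.9, 6.37 and 7.48 against 390.4, 386 and 401 (log2 fold change 5.30, adjusted p 1.8e-08). *Kcna3* had 22.4, 21.2 and 17.2 against 193, 142 and 184 (log2 fold change 3.03, adjusted p 1.3e-07). The sixth, *Kcnab2*, was abundant in both, with 116, 111 and 144 in astrocytes and 251, 272 and 249 in microglia (log2 fold change 1.06, adjusted p 2.3e-05). It was not called without WT quiescent astrocyte replicate 2, with a log2 fold change of 0.99 and an adjusted p of 2.0e-04, nor with quantile normalization (log2 fold change 0.98, adjusted p 1.2e-04), and its adjusted p over all alternatives ran from 2.7e-08 to 3.5e-04. *Kcnma1* was shared as well, with 63.4, 75.4 and 98.1 in astrocytes and 135, 153 and 134 in microglia, and was not called (log2 fold change 0.85, adjusted p 0.0011). It was called without WT quiescent astrocyte replicate 3, with a log2 fold change of 1.01 and an adjusted p of 1.5e-04, and its adjusted p over all alternatives ran from 1.5e-04 to 0.00613.

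On the astrocyte side, *Kcnc1* had 2948, 2948 and 3051 normalized counts in astrocytes and 48.7, 46.5 and 45.4 in microglia (log2 fold change -5.96, adjusted p 3.0e-11). *Kcnd3* had 1091, 1142 and 1087 against 35.1, 23.2 and 28.6 (log2 fold change -5.23, adjusted p 3.7e-10), and *Kcnip3*, whose product binds the channels that *Kcnd3* encodes, had 436, 507 and 494 against 6.79, 6.97 and 9.24 (log2 fold change -5.80, adjusted p 6.2e-10). No microglial library reached the lowest astrocyte library for any of these. *Kcna2* had 528, 509.6 and 412 in astrocytes and 5.66, 4.65 and 8.40 in microglia (log2 fold change -6.09, adjusted p 1.8e-09). *Kcnj16* had 249.9, 234 and 267 against 5.09, 0 and 4.20 (log2 fold change -6.31, adjusted p 1.9e-06). Both were near the floor in microglia. The two-pore channel genes *Kcnk2* and *Kcnk1* had 196, 199 and 231 and 74.6, 86.0 and 88.0 in astrocytes. In microglia they had 3.96, 4.65 and 5.88 and 3.39, 2.32 and 0, and both were called lower there (log2 -5.18 and -5.10, adjusted p 6.2e-09 and 4.5e-06). At 1 to 2 reads in microglia, the ratio of astrocytes to microglia per read depth was 163 (95% counting interval 28.8 to 6505) for *Kcnc4*, 35.6 (95% counting interval 5.86 to 1457) for *Kcnq3* and 16.5 (95% counting interval 4.11 to 143) for *Kcnk3*. Against a floor of 3 reads over the group, *Kcnk5* was at least 29.0-fold higher in astrocytes, *Kcnh7* at least 13.6-fold and *Kcnj11* at least 11.4-fold, since no read of these fell in the 3 microglial libraries. Intervals and floors cover counting error only, and reads without molecular identifiers are not independent molecules. *Kcnh5* and *Kcnk10* were called lower in microglia but fell under the minimum mean, and were not tested, without any 1 of WT quiescent astrocyte replicates 1, 2 and 3. Quantile normalization called neither (adjusted p 0.0241 and 0.0295). *Kcnk5* and *Kcnn1* passed the minimum and were called without any 1 of WT quiescent microglia replicates 1, 2 and 3, with an adjusted p of 2.8e-05 to 4.7e-05 for *Kcnk5*, for which the bound above holds, and log2 differences of -2.94 to -2.62 for *Kcnn1*.

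Activation of WT astrocytes was tested in 38 members (*Kcnj11*, *Kcnk13* and *Kcnn4* were under the minimum). Of these, 3 were called higher, where 6.0% of all 12336 genes tested were called, and 13 were called lower, where 5.54% were. The median log2 fold change was -0.33 over the 38 and 0.014 over all genes tested. A member that passed the minimum only through the state where it is high had to differ. With at least 10 normalized counts required in every library, 29 members were tested, of which 3 were called higher and 10 lower. Of all 11433 genes tested then, 1232 were called in either direction, and the medians were -0.39 and 0.0053. *Kcnc4*, *Kcnk5* and *Kcnmb4* were no longer tested. The 16 calls kept their direction under TMM rescaling and under quantile normalization. The count depended on single libraries: without WT quiescent replicate 2 it was 9, and without WT activated replicate 1 it was 10, while each other library left out gave 11 to 15. Calls over all genes tested were 1424 of 12336 with all libraries. They were 1134 of 12344 without WT quiescent replicate 2 and 1087 of 12320 without WT activated replicate 1. In SOD1G93A astrocytes, where *Kcnj11*, *Kcnk3* and *Kcnn4* were under the minimum, 4 of 38 were called higher (6.74% of all 12203 genes tested) and 12 lower (6.4%), with a median of -0.63 against -0.0054 over all genes. With at least 10 in every library, 4 of 29 were called higher and 8 lower there (1369 of all 11304 genes tested in either direction). *Kcnab3*, *Kcnc4*, *Kcnmb4* and *Kcnn2* were then not tested. LPS in WT microglia was tested in 10 members, of which 0 were called higher (10.2% of all 10866 genes tested) and 5 lower (10.6%). The median of the 10 was -0.84 and that of all genes tested 0.0048. At an unadjusted p under 0.05, 1 of the 10, *Kcna3*, was higher by limma (31.1% of all genes), and DESeq2 and edgeR also called 0 higher and 5 lower.

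**Figure D1:**
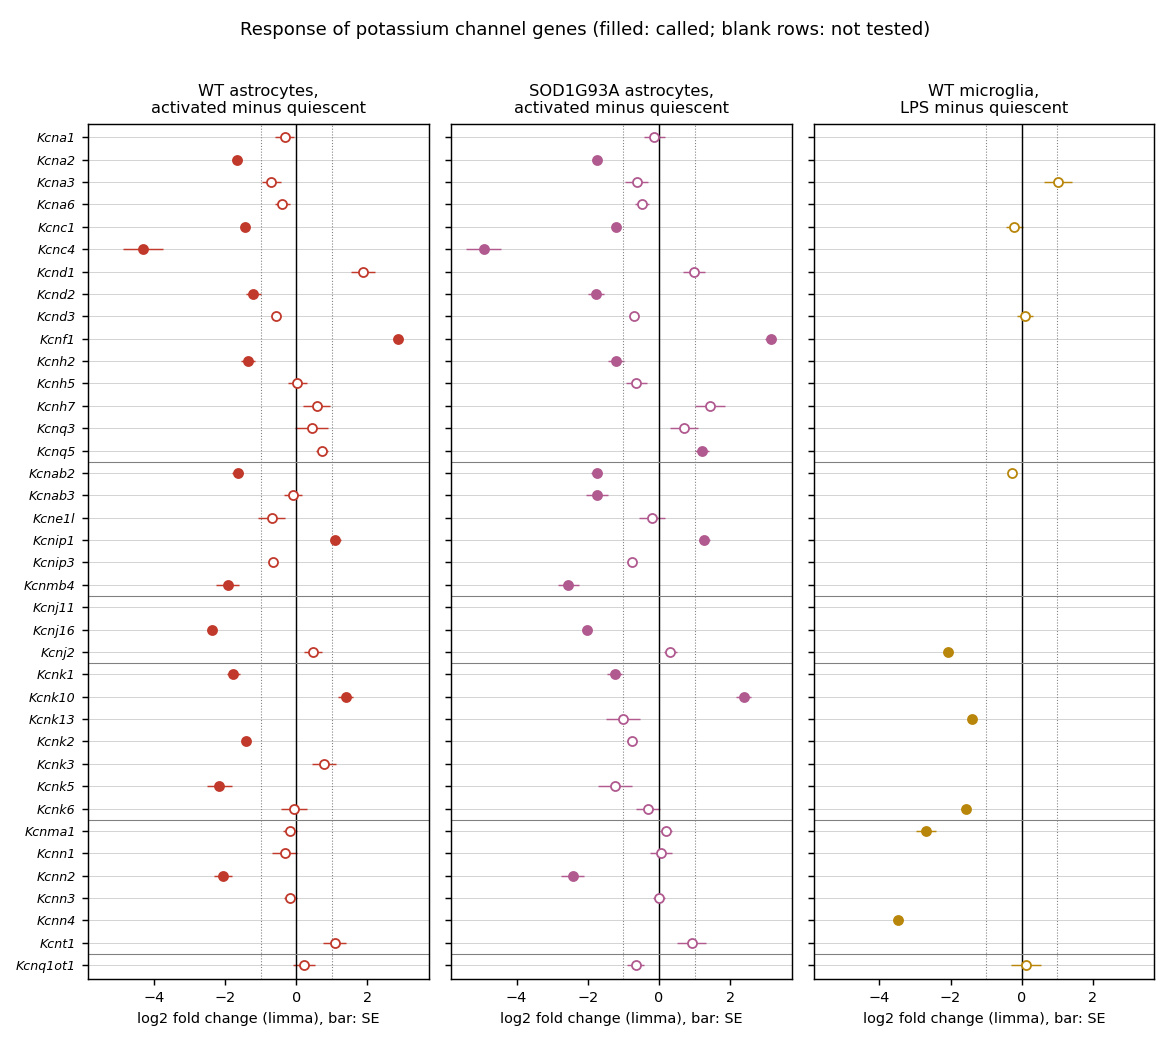
Log2 fold changes with standard errors from limma (x axis) for 38 of the 41 members (y axis, in family order) in WT astrocytes, SOD1G93A astrocytes and WT microglia, with filled points for called genes, blank rows for genes not tested and dotted lines at a 2-fold change. *Kcnf1* stands farthest to the right in both astrocyte panels, at 2.85 and 3.14, and *Kcnc4* farthest to the left, at -4.31 and -4.93.

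Among the voltage-gated pore subunits, *Kcnc1* (chr7:46396497-46438704 on GRCm38), which encodes a fast delayed rectifier best known from fast-firing neurons, had 3683, 3644 and 3702 normalized counts in WT quiescent astrocytes and 1219, 1365 and 1478 after activation (log2 fold change -1.44, adjusted p 5.2e-07). The 6 libraries fell into separate ranges. Its relative *Kcnc4* (chr3:107438303-107459552), for a channel that inactivates fast, went from 55.9, 59.0 and 29.3 to 1.93, 3.57 and 0 (log2 fold change -4.31, adjusted p 1.1e-04), and 1 activated library had no read of it. The gene was not called without WT quiescent astrocyte replicate 2, with a log2 fold change of -4.13 and an adjusted p of 0.00227, nor with limma without trend (adjusted p 0.00128), and its adjusted p over all alternatives ran from 4.9e-11 to 0.00227. In SOD1G93A astrocytes *Kcnc1* had 3934, 3815 and 3989 when quiescent and 1739, 1604 and 1765 when activated (log2 fold change -1.20, adjusted p 2.9e-08). There *Kcnc4* had 54.1, 60.8 and 79.4 and 1.20, 3.43 and 0 (log2 fold change -4.93, adjusted p 4.5e-07), so both genes were lower in all activated libraries of either genotype.

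*Kcna2* (chr3:107101146-107115005), which encodes a low-threshold delayed rectifier found on axons, had 659, 629.8 and 500.5 normalized counts in WT quiescent and 168, 175 and 223 in activated astrocytes (log2 fold change -1.66, adjusted p 3.4e-06). All activated libraries were below all quiescent ones, also in SOD1G93A, with 527, 599.7 and 677 against 209, 160.2 and 167 (log2 fold change -1.75, adjusted p 9.7e-09). *Kcna1*, *Kcna3* and *Kcna6* of the same subfamily were not called in either genotype. *Kcnq5*, for a slow, non-inactivating channel, moved the other way from *Kcna2*, from 46.6, 47.2 and 63.5 to 87.7, 79.2 and 92.3 in WT, which was not called (log2 fold change 0.72, adjusted p 0.00652), and from 50.5, 48.7 and 35.3 to 116, 85.8 and 112 in SOD1G93A, which was (log2 fold change 1.21, adjusted p 6.2e-05). In SOD1G93A it was not called without SOD1G93A activated astrocyte replicate 1, with a log2 fold change of 1.13 and an adjusted p of 0.00111, nor with limma without trend (adjusted p 0.0016), and its adjusted p over all alternatives ran from 2.6e-06 to 0.0016. The difference between the genotypes' responses was not called for *Kcnq5* (log2 0.49, adjusted p 0.653).

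*Kcnf1* (chr12:17172100-17176888) encodes a subunit that is silent by itself and modifies the channels it joins. It had 69.9, 76.1 and 101 normalized counts in WT quiescent astrocytes and 621, 569 and 592 after activation, a mean 7.21-fold higher (log2 fold change 2.85, adjusted p 7.8e-08). Each activated library was far above each quiescent one. In SOD1G93A astrocytes it had 54.6, 62.6 and 39.1 and 436, 501 and 441 (log2 fold change 3.14, adjusted p 1.6e-10), again with no overlap. In WT microglia *Kcnf1* stayed under the minimum mean, at 5.58, 10.5 and 8.33 when quiescent and 10.3, 6.15 and 5.21 with LPS, and those ranges overlapped.

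The *Kcnd* genes encode channels of the transient A-type current. *Kcnd2* had 55.9, 63.0 and 84.3 normalized counts in WT quiescent and 26.0, 29.2 and 30.2 in activated astrocytes, with no overlap (log2 fold change -1.20, adjusted p 7.6e-04). *Kcnd2* was not called without any 1 of WT quiescent astrocyte replicates 2 and 3 and WT activated astrocyte replicates 1, 2 and 3, with log2 fold changes of -1.24 to -1.04 and adjusted p of 0.00165 to 0.0054, nor with no minimum mean (adjusted p 0.00171) or limma without trend (adjusted p 0.00156), and its adjusted p over all alternatives ran from 5.6e-05 to 0.0054. In SOD1G93A astrocytes it went from 67.0, 59.1 and 63.0 to 16.7, 16.0 and 21.1 (log2 fold change -1.76, adjusted p 5.8e-06). *Kcnd3*, the most abundant of the 3 per length, went from 1363, 1412 and 1318 to 851, 922 and 972 in WT, a separate but less than 2-fold lower range (log2 fold change -0.58, adjusted p 2.5e-04). *Kcnd1* was the reverse, with 11.6, 5.25 and 8.54 and 28.0, 40.6 and 30.2 (log2 fold change 1.88, adjusted p 0.00112). Its groups did not overlap but it missed the limit on the adjusted p in limma. *Kcnd1* was called without any 1 of WT quiescent astrocyte replicates 1 and 3, with log2 fold changes of 1.91 to 2.12 and adjusted p of 1.9e-04 to 6.9e-04, and also with a pseudocount of 5 (adjusted p 6.9e-04), DESeq2 (adjusted p 9.9e-05) and edgeR (adjusted p 3.5e-04), and its adjusted p over all alternatives ran from 9.9e-05 to 0.011. Its log2 fold change in SOD1G93A was 0.99 (adjusted p 0.0165). Of the ether-à-go-go channel genes, *Kcnh2* had 81.5, 97.1 and 73.1 in WT quiescent and 26.0, 37.1 and 33.6 in activated astrocytes (log2 fold change -1.36, adjusted p 2.4e-04). The ranges were separate, also in SOD1G93A (log2 -1.21, adjusted p 2.8e-04). *Kcnh2* was not called without any 1 of WT quiescent astrocyte replicate 2 and WT activated astrocyte replicates 1 and 3, with log2 fold changes of -1.39 to -1.22 and adjusted p of 0.00161 to 0.00259, and its adjusted p over all alternatives ran from 3.6e-06 to 0.00259. In the SOD1G93A comparison *Kcnh2* was not called without any 1 of SOD1G93A quiescent astrocyte replicate 3 and SOD1G93A activated astrocyte replicates 1 and 3, with log2 fold changes of -1.21 to -1.04 and adjusted p of 0.00108 to 0.00147, nor with no minimum mean (adjusted p 0.00124) or limma without trend (adjusted p 0.00119), and its adjusted p over all alternatives ran from 1.7e-04 to 0.00147. *Kcnh5* and *Kcnh7* were not called in either genotype, and neither was *Kcnq3*.

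*Kcna3* is the voltage-gated gene that microglia held at the highest level, and it encodes a channel also known from T cells. It had 173, 128 and 166 normalized counts in WT quiescent microglia and 137, 474 and 469 with LPS (log2 fold change 1.01, adjusted p 0.0495). Of the 3 LPS libraries, 2 stood far above the quiescent range and replicate 1 lay inside it. The gene was called without WT LPS microglia replicate 1, with a log2 fold change of 1.60 and an adjusted p of 1.6e-08, and its adjusted p over all alternatives ran from 1.6e-08 to 0.18. In SOD1G93A microglia with LPS its CPM values were 76.1, 73.6 and 71.0, next to 22.9, 75.7 and 77.0 in WT with LPS and 33.6, 23.9 and 31.6 in WT quiescent microglia. All SOD1G93A libraries were close to the upper pair of the WT ones. *Kcnc1* and *Kcnd3*, the other voltage-gated genes tested in microglia, overlapped between the states (log2 -0.21 and 0.10). The 15 others were under the minimum in microglia.

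Among the auxiliary subunits, *Kcnab2* (chr4:152390742-152477871), the cytosolic beta subunit of the *Kcna* channels, had 144, 138 and 175 normalized counts in WT quiescent astrocytes and 54.0, 45.6 and 44.8 after activation (log2 fold change -1.64, adjusted p 8.3e-06). The ranges were far apart, as they were in SOD1G93A, with 134, 119.9 and 118 and 39.4, 33.2 and 35.9 (log2 fold change -1.75, adjusted p 1.9e-07). In WT microglia it went from 225, 246 and 224 to 195, 184 and 190.1 with LPS, a small shift without overlap that was not called (log2 fold change -0.29, adjusted p 0.0318). *Kcnmb4*, the beta subunit that slows the large-conductance calcium-activated channel, had 62.9, 57.7 and 35.2 in WT quiescent and 11.6, 9.27 and 18.1 in activated astrocytes (log2 fold change -1.93, adjusted p 5.5e-04). No activated library reached the lowest quiescent one. *Kcnmb4* was not called without any 1 of WT quiescent astrocyte replicates 1 and 2 and WT activated astrocyte replicates 1 and 2, with log2 fold changes of -1.88 to -1.73 and adjusted p of 0.00102 to 0.0058, nor with no minimum mean (adjusted p 0.00101), limma without trend (adjusted p 0.00258) or a model term for depth class (adjusted p 0.00103), and its adjusted p over all alternatives ran from 3.0e-06 to 0.0058. In SOD1G93A it went from 39.0, 45.2 and 55.5 to 7.17, 5.72 and 8.44 (log2 fold change -2.55, adjusted p 2.8e-06).

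The *Kcnip* genes encode calcium-binding proteins that bring A-type channels to the membrane. *Kcnip1* (chr11:33629339-33993152) had 79.2, 74.8 and 114 normalized counts in WT quiescent and 186, 186 and 196 in activated astrocytes (log2 fold change 1.10, adjusted p 2.4e-04). The activated libraries were all higher. *Kcnip1* was not called without any 1 of WT quiescent astrocyte replicate 2 and WT activated astrocyte replicates 1, 2 and 3, with log2 fold changes of 0.99 to 1.11 and adjusted p of 0.0015 to 0.00281, nor with limma without trend (adjusted p 0.0025), and its adjusted p over all alternatives ran from 6.8e-07 to 0.00281. In SOD1G93A it had 86.7, 66.6 and 78.1 and 191, 212 and 162 (log2 fold change 1.28, adjusted p 2.5e-06). *Kcnip3* fell from 545, 627 and 599.7 to 367, 377 and 375 in WT, less than 2-fold (log2 fold change -0.66, adjusted p 1.3e-04). The 2 genes thus moved in opposite directions, with separate ranges for each. *Kcnab3*, another beta subunit, was not called in WT (log2 fold change -0.093, adjusted p 0.815), and in SOD1G93A it went from 28.9, 42.3 and 44.1 to 15.5, 9.15 and 8.44 (log2 fold change -1.73, adjusted p 2.6e-04). There it was not called without any 1 of SOD1G93A quiescent astrocyte replicate 2 and SOD1G93A activated astrocyte replicate 2, with log2 fold changes of -1.66 to -1.64 and adjusted p of 0.00141 to 0.00306, nor with no minimum mean (adjusted p 0.00112) or limma without trend (adjusted p 0.00145), and its adjusted p over all alternatives ran from 1.6e-04 to 0.00306. The difference of the 2 responses of *Kcnab3* was not called (log2 -1.64, adjusted p 0.143). *Kcne1l*, a single-pass subunit, overlapped between the states in both genotypes.

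The inward rectifier *Kcnj16* (chr11:110968033-111027968) forms pH-sensitive channels in astrocytes with the product of *Kcnj10*. It had 312, 289 and 324 normalized counts in WT quiescent astrocytes and 60.7, 50.6 and 65.5 after activation, 5.23-fold lower (log2 fold change -2.37, adjusted p 1.9e-07). No library crossed into the range of the other state. In SOD1G93A it went from 309, 289.7 and 282 to 58.6, 70.9 and 88.6 (log2 fold change -2.02, adjusted p 1.3e-08). *Kcnj10* itself, which is not a member, had 741, 770.3 and 897 CPM in WT quiescent and 160.1, 176 and 195 in WT activated astrocytes (log2 fold change -2.16, adjusted p 1.5e-07). The 2 genes of this pair were both called lower in both genotypes (log2 fold change -1.73, adjusted p 1.8e-09 for *Kcnj10* in SOD1G93A). *Kcnj2* (chr11:111066164-111076821), which encodes a strong inward rectifier that holds the potential near the potassium equilibrium, had 936, 833 and 982 in WT quiescent microglia and 172, 269 and 221 with LPS, 4.15-fold lower (log2 fold change -2.07, adjusted p 8.5e-07). The LPS libraries lay far under the quiescent ones. In astrocytes *Kcnj2* had 30.3, 45.9 and 41.1 and 40.5, 69.2 and 55.2, with overlap and no call (log2 fold change 0.47, adjusted p 0.152). *Kcnj11*, the pore of the ATP-sensitive channel, had 0.992, 1.37 and 2.05 CPM in WT quiescent and 0.594, 0.148 and 0.348 in WT activated astrocytes and no read in any of the 9 microglial libraries. Its mean over the activation libraries was under the minimum in both genotypes. In SOD1G93A it had 62 reads over the 3 quiescent libraries and 3 over the activated ones, a ratio of 10.1 (95% counting interval 3.29 to 50.2).

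Two-pore-domain channels carry background potassium current. *Kcnk1* (chr8:125995170-126030685), for a weak background channel of astrocytes, had 93.2, 106 and 107 normalized counts in WT quiescent and 33.7, 27.8 and 26.7 in activated astrocytes (log2 fold change -1.76, adjusted p 1.1e-05). *Kcnk2* (chr1:189207930-189402273), for a channel opened by stretch and lipids, had 245, 245 and 281 and 94.5, 95.6 and 97.4 (log2 fold change -1.41, adjusted p 2.3e-06). Both had separate ranges with the activated libraries lower. In SOD1G93A *Kcnk1* went from 115, 101 and 80.7 to 29.9, 48.1 and 46.4 (log2 fold change -1.25, adjusted p 1.2e-04), which was not called with limma without trend (adjusted p 0.00322). *Kcnk2* there went from 178, 150.1 and 153 to 100.4, 103 and 80.2, less than 2-fold (log2 fold change -0.76, adjusted p 3.5e-04). The difference between the genotypes' responses of *Kcnk2* was not called (log2 0.65, adjusted p 0.2). *Kcnk10*, for a channel of the same mechanosensitive subfamily as *Kcnk2*, rose from 18.6, 22.3 and 25.6 to 61.7, 55.6 and 60.4 in WT (log2 fold change 1.39, adjusted p 2.6e-04) and from 17.0, 20.3 and 12.6 to 86.0, 87.0 and 94.9 in SOD1G93A (log2 fold change 2.38, adjusted p 2.1e-07). All activated libraries were above all quiescent ones. In WT *Kcnk10* was not called without any 1 of WT quiescent astrocyte replicate 2 and WT activated astrocyte replicates 1, 2 and 3, with log2 fold changes of 1.36 to 1.43 and adjusted p of 0.00147 to 0.00325, and its adjusted p over all alternatives ran from 7.1e-05 to 0.00325. *Kcnk5*, for an acid-sensitive channel, went from 23.3, 22.3 and 20.8 to 4.82, 4.28 and 3.45 in WT (log2 fold change -2.17, adjusted p 5.7e-04). Its ranges were separate, at low counts. *Kcnk5* was not called without any 1 of WT quiescent astrocyte replicates 1, 2 and 3 and WT activated astrocyte replicates 1, 2 and 3, with log2 fold changes of -2.25 to -2.06 and adjusted p of 0.00112 to 0.00521, nor with a model term for depth class (adjusted p 0.00146), and its adjusted p over all alternatives ran from 5.2e-05 to 0.00521. In SOD1G93A *Kcnk5* was not called (log2 fold change -1.24, adjusted p 0.0453), and neither was *Kcnk6* in either genotype nor *Kcnk3* in WT.

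**Figure D2:**
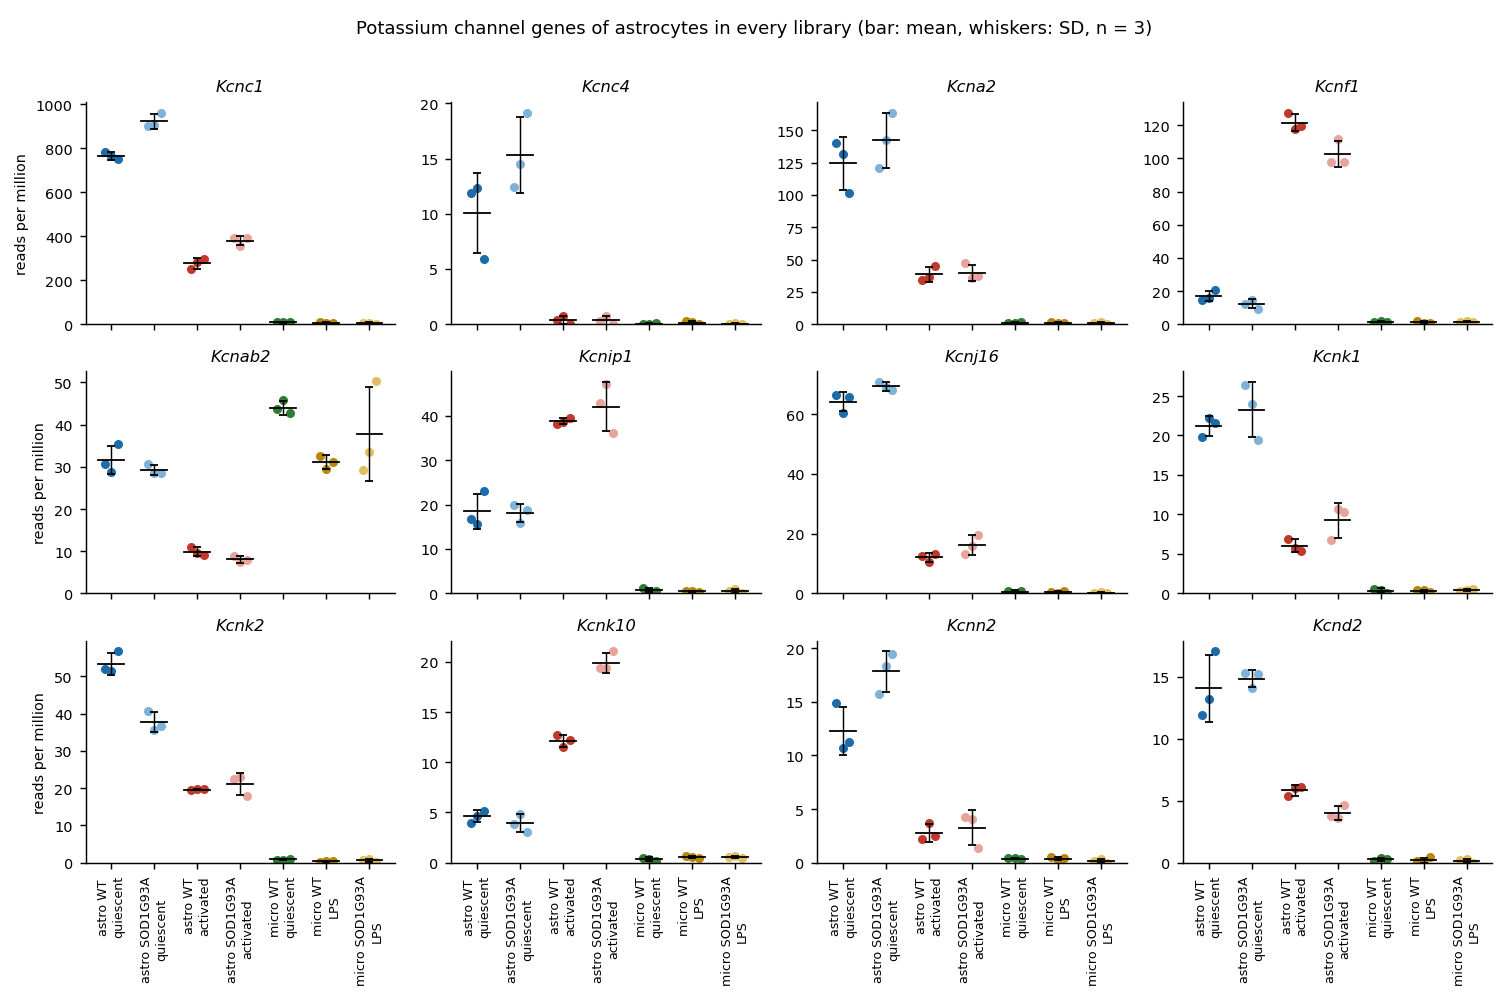
CPM (y axis) of 12 genes called in activated WT astrocytes, in each of the 21 libraries by condition (x axis), with bars for means and whiskers for the SD (n = 3). *Kcnf1*, *Kcnip1* and *Kcnk10* are higher in all activated libraries of either genotype and the other 9 are lower, and *Kcnab2* averages 44.0 in WT quiescent microglia beside 31.7 in WT quiescent astrocytes.

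The two-pore channel genes of microglia were *Kcnk13* and *Kcnk6*. *Kcnk13* (chr12:99964499-100062682) encodes the channel behind the resting potassium conductance of microglia. It had 325, 335 and 334 normalized counts in WT quiescent microglia and 115, 134 and 125 with LPS, 2.65-fold lower (log2 fold change -1.40, adjusted p 1.0e-06). The libraries of each state were close together and the states far apart. *Kcnk6* (chr7:29221926-29232515), which encodes a relative of the *Kcnk1* channel, had 685, 631 and 618 and 195, 266 and 194, 2.95-fold lower (log2 fold change -1.57, adjusted p 2.3e-06). Here too no LPS library came near the quiescent range. CPM values in SOD1G93A microglia with LPS were 19.3, 18.0 and 32.2 for *Kcnk13* and 45.3, 42.8 and 65.1 for *Kcnk6*, all below those of WT quiescent microglia (63.1, 62.3 and 63.5, and 133, 118 and 118).

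The calcium-activated *Kcnn4* (chr7:24370263-24386690) encodes the intermediate-conductance channel of microglia and other immune cells. It had 350.2, 349 and 361 normalized counts in WT quiescent microglia and 26.4, 35.6 and 31.3 with LPS, 11.4-fold lower (log2 fold change -3.47, adjusted p 9.3e-09). The highest LPS library was far below the lowest quiescent one. *Kcnma1* (chr14:23289431-24014491), the pore of the large-conductance channel opened by calcium and voltage, had 121, 139 and 120.3 and 11.0, 25.8 and 23.4 (log2 fold change -2.68, adjusted p 1.5e-05). Its 3 LPS libraries were all low. In astrocytes *Kcnma1* overlapped between the states, with log2 fold changes of -0.18 in WT and 0.20 in SOD1G93A, while its beta subunit gene *Kcnmb4* was called lower. The small-conductance gene *Kcnn2* had 69.9, 51.2 and 55.5 in WT quiescent and 10.6, 17.8 and 12.1 in activated astrocytes (log2 fold change -2.06, adjusted p 8.2e-05), and 68.8, 77.1 and 80.7 and 19.1, 18.3 and 6.33 in SOD1G93A (log2 fold change -2.43, adjusted p 1.4e-05). Its activated libraries were all lower, but the SOD1G93A change was not called with limma without trend (adjusted p 0.00181). *Kcnn3*, of the same subfamily, overlapped between the states (log2 fold change -0.16, adjusted p 0.519 in WT), and so did *Kcnn1*. The sodium-activated *Kcnt1* had separate ranges in WT (14.0, 30.2 and 12.8, and 34.7, 44.2 and 37.1 after activation) and was not called (log2 fold change 1.08, adjusted p 0.0205).

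**Figure D3:**
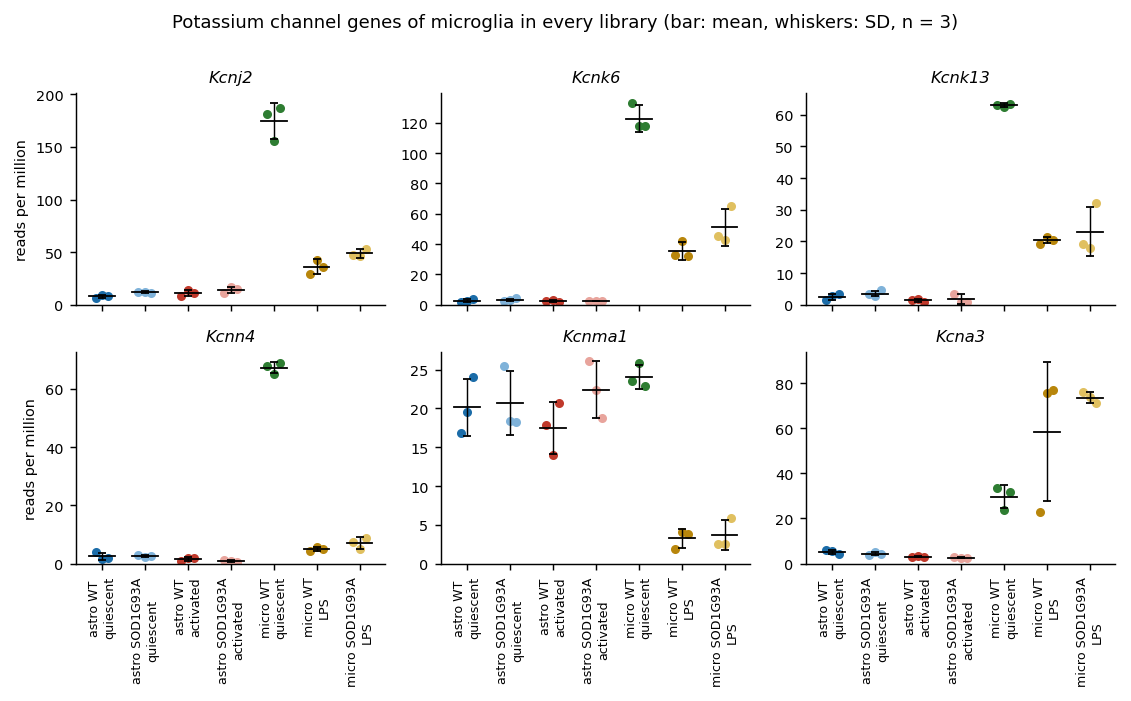
CPM (y axis) of 6 genes in each of the 21 libraries by condition (x axis), with bars for means and whiskers for the SD (n = 3). *Kcnj2*, *Kcnk6*, *Kcnk13* and *Kcnn4* are highest in WT quiescent microglia, *Kcnma1* averages 24.1 there and 20.2 in WT quiescent astrocytes, and 1 WT LPS library of *Kcna3* sits at 22.9 beside 75.7 and 77.0.

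*Kcnq1ot1* is a long non-coding RNA (chr7:143203458-143296549, minus strand) transcribed against the channel gene *Kcnq1*, which was under the minimum. Its CPM values were 47.6, 39.6 and 17.3 in WT quiescent and 38.2, 80.8 and 81.7 in SOD1G93A quiescent astrocytes. The libraries within each group differed by more than 2-fold, and the groups overlapped. It was not called on activation in WT astrocytes (log2 fold change 0.22, adjusted p 0.621), in SOD1G93A astrocytes (log2 fold change -0.66, adjusted p 0.0345) or in microglia (log2 fold change 0.12, adjusted p 0.83). It was called lower in WT quiescent microglia than in WT quiescent astrocytes, with 13.0, 6.97 and 26.0 normalized counts against 179, 153 and 70.4 (log2 fold change -3.12, adjusted p 8.2e-05), but not with limma without trend (adjusted p 0.00149).

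Genotype was compared in quiescent astrocytes for 39 members (*Kcnh7* and *Kcnk3* were under the minimum). With limma 0 were called in either direction, where 0.0% of all 12271 genes tested were called. At an unadjusted p under 0.05 there were 11, where 8.7% of all genes tested had such a p, and DESeq2 and edgeR also called 0, with 7 and 11 members at such a p. Leaving out 1 library gave 3 (without SOD1G93A quiescent replicate 2), 5 (without SOD1G93A quiescent replicate 3 or WT quiescent replicate 2), 6 (without WT quiescent replicate 3) or 8 to 9 members. With a model term for depth class, 13 members had such a p, and limma called 0 members and 13 of all 12271 genes tested. The lowest adjusted p of a member in limma was then 0.00266, in place of 0.248. Without that term the lowest unadjusted p was that of *Kcnk2*, with 258, 256 and 291 normalized counts in WT and 206, 175 and 179 in SOD1G93A (log2 fold change -0.52, limma p 0.00121, adjusted p 0.248). All 3 SOD1G93A libraries were below the WT ones, by less than 2-fold. *Kcnn2* had 73.7, 53.3 and 57.5 in WT and 79.4, 89.7 and 94.8 in SOD1G93A (log2 fold change 0.52, adjusted p 0.483). *Kcnab3* had 29.5, 23.2 and 28.8 and 33.3, 49.2 and 51.9 (log2 fold change 0.68, adjusted p 0.484). For both, all SOD1G93A libraries were above all WT libraries. Markers of other cells were compared as well, and limma called 0 of those tested. The 14 microglia markers, led by *Sall1* with none at 0, summed to 363, 437 and 523 CPM in WT and 599, 593 and 456 in SOD1G93A, with overlap, and 12 of 13 tested were higher in SOD1G93A (median log2 0.57), of which limma called 0 and 5 of the 13 had an unadjusted p under 0.05. Sums of the oligodendrocyte lineage markers were higher in all SOD1G93A libraries, with *Olig1* at a mean of 1799 CPM in WT and 2122 in SOD1G93A. Of 10 of these markers tested, 4 were higher and 6 lower in SOD1G93A (median log2 -0.21). The sums of the endothelial and of the pericyte and fibroblast markers were lower in all SOD1G93A libraries. The part of these in the genotype comparison was not tested.

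In activated astrocytes, 34 members were tested for genotype and limma called 0, beside 0.521% of all 12098 genes tested called higher in SOD1G93A and 0.124% called lower. At an unadjusted p under 0.05 there were 9 members, where 20.4% of all genes had such a p, and DESeq2 and edgeR called 0. *Kcnc1* had 1050.0, 1178 and 1267 normalized counts in WT and 1681, 1544 and 1704 in SOD1G93A (log2 fold change 0.50, adjusted p 6.0e-05). The ranges were apart, but the change was under 2-fold, and over the alternatives its adjusted p ran from 2.6e-09 to 0.0602. *Kcnk10* had 53.2, 48.0 and 51.7 and 83.2, 83.7 and 91.6 (log2 fold change 0.75, adjusted p 0.00287), again with all SOD1G93A libraries higher. These were the 2 members with an adjusted p under 0.05, where 7.27% of all genes tested had one. Next by p was *Kcnq5*, with 75.6, 68.3 and 79.1 and 112, 82.6 and 108 and no overlap (log2 fold change 0.42, adjusted p 0.0865). The SOD1G93A activated libraries had 3721779, 3929272 and 2135439 reads, all fewer than the WT ones, so depth and genotype cannot be told apart in this comparison. Of the marker genes of other cells tested here, *Dcx* was called lower in SOD1G93A, and the endothelial and the pericyte and fibroblast sums were lower in all SOD1G93A libraries. Of 10 neuron markers tested, 8 were lower and 2 higher in SOD1G93A (median log2 -0.65). Microglia markers had 11 of 13 lower and 2 higher (median log2 -0.12), and oligodendrocyte lineage markers 3 of 10 lower and 7 higher (median log2 0.045). Their part in the result was not tested.

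The test of the difference itself, the SOD1G93A response to activation minus that of WT astrocytes, was run for 38 members. Limma called 0, as it did of all 12269 genes tested (0.0%). At an unadjusted p under 0.05 there were 3 members, where 8.3% of all genes had such a p, and DESeq2 and edgeR called 0. That number was 7 without WT quiescent replicate 1 or SOD1G93A activated replicate 1, 5 without SOD1G93A quiescent replicate 1 or SOD1G93A activated replicate 2 or 3, and 3 to 4 without each other library. It was 11 with a model term for depth class and 6 in limma without trend. With the depth class term limma called 0 members and 56 of all 12269 genes tested, and the lowest adjusted p of a member was 0.00406. For *Kcnk10* the 2 responses were 1.39 and 2.38, each on the scale of its own comparison, and their difference was 1.00 (adjusted p 0.272). In LPS-treated microglia, 10 members were tested for genotype. Limma called 0, where 0.0% of all 10679 genes tested were called. At an unadjusted p under 0.05 there were 2, where 8.71% of all genes had such a p, and DESeq2 and edgeR called 0. That number was 0 without SOD1G93A replicate 3, 1 without WT replicate 1 or 3, 4 without SOD1G93A replicate 2, and 2 otherwise. *Kcnj2* had 171, 267 and 221 normalized counts in WT and 293, 281 and 318 in SOD1G93A (log2 fold change 0.46, adjusted p 0.571), with no overlap. *Kcnk6* had 194, 263 and 194 and 281, 262 and 388 (log2 fold change 0.51, adjusted p 0.571). *Kcnn4* had 26.3, 35.4 and 31.3 and 46.1, 30.2 and 53.1 (log2 fold change 0.44, adjusted p 0.591). The last 2 overlapped between the genotypes. The 14 microglia markers, with none at 0, summed to 4821, 4524 and 4521 CPM in WT LPS libraries, led by *Itgam*, and 4957, 4847 and 6549.6 in SOD1G93A ones, led by *Csf1r*, and SOD1G93A replicate 3 stood apart. In SOD1G93A 12 of 14 were higher (median log2 0.22), of which limma called 0 and 3 of the 14 had an unadjusted p under 0.05. The 13 oligodendrocyte lineage markers, led by *Cspg4*, summed to 145, 143 and 145 in WT and 186, 192 and 280.5 in SOD1G93A, with *Mog* at 0 in the latter. *Cspg4* alone averaged 65.6 CPM in WT and 143.6 in SOD1G93A. Of 6 of these markers tested, 3 were higher and 3 lower in SOD1G93A, and limma called 0 (median log2 -0.038). The other 4 marker sums overlapped between the genotypes. Without SOD1G93A replicate 3 the log2 fold change of *Kcnk6* was 0.34, that of *Kcnj2* 0.41 and that of *Kcnn4* 0.27. The part of the marker differences in these values was not tested.

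Whether the cell types respond differently was tested as the LPS response of WT microglia minus the activation response of WT astrocytes. The stimuli, media, isolation, brain region and age differ, so cell type cannot be told apart from these here. Of 35 members tested, 3 were called with a higher response in microglia (6.73% of all 12334 genes tested) and 4 with a lower one (8.44%). The count was 14 with a pseudocount of 5 (where 2241 of all 12334 genes were called), 4 of 6 tested with at least 10 normalized counts in every library (where 1464 of all 9298 genes were called, and 1 of the 4 was *Kcnc1*, which is not among the 7) and 16 at an adjusted p under 0.05 at any fold (where 5052 of all 12334 were). On 1 common scale, the log2 response of *Kcnj2* was 0.45 in astrocytes and -2.06 in microglia (difference -2.51, adjusted p 9.7e-06). That of *Kcnn4* was -0.59 in astrocytes and -3.47 in microglia (difference -2.89, adjusted p 1.6e-04). That of *Kcnma1* was -0.19 in astrocytes and -2.68 in microglia (difference -2.49, adjusted p 1.2e-04). *Kcnj2* and *Kcnma1* fell in microglia and moved by less than 2-fold in astrocytes. *Kcnn4* was under the minimum mean in the astrocyte comparison, so its difference shows the fall in microglia and says little on astrocytes. *Kcnf1* had 2.83 in astrocytes and -0.16 in microglia (difference -2.99, adjusted p 1.9e-05), and *Kcnab2* had -1.65 in astrocytes and -0.28 in microglia (difference 1.37, adjusted p 3.3e-05). *Kcnab2* changed by more than 2-fold in astrocytes alone. *Kcnf1* did so in astrocytes, and in microglia it was under the minimum mean. *Kcna2* had -1.67 in astrocytes and 0.28 in microglia (difference 1.95, adjusted p 5.0e-04), and *Kcnc4* had -4.21 in astrocytes and 0.61 in microglia (difference 4.82, adjusted p 5.8e-04), both under the minimum mean in microglia. *Kcna2* was not called without any 1 of WT quiescent microglia replicates 1 and 2, WT LPS microglia replicate 3, WT quiescent astrocyte replicates 1 and 2 and WT activated astrocyte replicates 1 and 2, with log2 fold changes of 1.78 to 1.97 and adjusted p of 0.00104 to 0.00229, nor with edgeR (adjusted p 0.00201) or limma without trend (adjusted p 0.00119), and its adjusted p over all alternatives ran from 4.3e-05 to 0.00229. *Kcnc4* was not called without any 1 of WT quiescent microglia replicates 1 and 2, WT LPS microglia replicates 1 and 2 and WT activated astrocyte replicates 1 and 3, with log2 fold changes of 4.25 to 4.95 and adjusted p of 0.00135 to 0.00167, nor with a pseudocount of 0.5 (adjusted p 0.00345), edgeR (adjusted p 0.0163) or a model term for depth class (adjusted p 0.00161), and its adjusted p over all alternatives ran from 7.5e-06 to 0.0163. *Kcnc4* also fell under the minimum mean, and was not tested, without any 1 of WT quiescent astrocyte replicates 1, 2 and 3. With at least 10 normalized counts in every library, *Kcna2*, *Kcnc4*, *Kcnf1* and *Kcnn4* were not tested. *Kcnc1* (difference 1.26, adjusted p 0.00106) was called without WT LPS microglia replicate 2, with a log2 fold change of 1.55 and an adjusted p of 2.0e-06, and also with a pseudocount of 5 (adjusted p 2.9e-04), at least 10 normalized counts in every library (adjusted p 7.4e-04), quantile normalization (adjusted p 2.8e-05), DESeq2 (adjusted p 1.3e-07), edgeR (adjusted p 2.0e-04) and a model term for depth class (adjusted p 6.5e-04), and its adjusted p over all alternatives ran from 1.3e-07 to 0.0052. *Kcnd1* (difference -3.81, adjusted p 0.00233) was called without WT LPS microglia replicate 2, with a log2 fold change of -4.58 and an adjusted p of 1.3e-04, and also with a pseudocount of 5 (adjusted p 2.2e-04), DESeq2 (adjusted p 9.9e-06) and edgeR (adjusted p 1.9e-04), and its adjusted p over all alternatives ran from 9.9e-06 to 0.00784. Quantile normalization turned the balance, with 6 calls of a higher and 2 of a lower response in microglia. It lost *Kcnma1* (log2 -1.97, adjusted p 0.00124) and *Kcnn4* (log2 -2.07, adjusted p 0.00178) and gained *Kcnc1*, *Kcnip3* (log2 1.04, adjusted p 6.1e-04) and *Kcnn2* (log2 2.77, adjusted p 5.3e-04). Other calls gained when 1 library was left out were *Kcna3* (without WT LPS microglia replicate 1, log2 2.31) and *Kcnk6* (without WT quiescent astrocyte replicate 3, log2 -1.76).

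A list of 33 other genes of potassium handling includes cation-chloride cotransporters, FXYD proteins, related cation channels, channel partners and *Kcnj10*. Activated WT astrocytes had 0 of 21 tested called higher and 4 called lower with limma, with a median log2 fold change of -0.056. *Fxyd6*, for a small membrane protein of the FXYD family, had 143, 139 and 122 CPM in WT quiescent and 43.6, 47.4 and 38.4 in WT activated astrocytes (log2 fold change -1.62, adjusted p 4.1e-07). *Dpp6*, whose product joins the *Kcnd* channels, had 29.3, 35.7 and 33.0 CPM in WT quiescent and 10.7, 12.4 and 8.35 in WT activated astrocytes (log2 fold change -1.61, adjusted p 1.9e-05). Both were among the 4 called, as was *Kcnj10*, each with separate ranges, and these genes were also called lower in SOD1G93A, where 4 of 20 tested were. In WT microglia 0 of 16 were called higher with LPS and 5 lower, with a median of -0.40. Among these were *Fxyd2* (log2 fold change -3.09, adjusted p 5.3e-06) and *Fxyd5* (log2 fold change -1.18, adjusted p 9.0e-07) of the FXYD family, and the potassium-chloride cotransporter *Slc12a7* (log2 fold change -1.41, adjusted p 8.7e-06). Between WT quiescent cells, 7 of 19 were called higher and 7 lower in microglia, with a median of -0.043. No gene of the list was called by limma in the genotype comparisons (21 tested in quiescent and 19 in activated astrocytes, 16 in LPS microglia) or among 20 in the test of the genotypes' responses. In the test between the cell types' responses, 2 of 19 were called with a higher microglial response (*Kcnj10* among them) and 4 with a lower one (*Fxyd2*, *Slc12a2* and *Slc12a7* among them).

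Marker genes of the cell types were measured in the same libraries. The 14 astrocyte markers summed to 6209, 6718 and 7739.9 CPM in WT quiescent and 5285, 5302 and 5337 in activated astrocytes, with *Slc1a3* the most abundant and none at 0. The ranges did not overlap, and of 13 tested 0 were called higher and 3 lower (*Hepacam*, *Aldoc* and *Fgfr3*). The 13 oligodendrocyte lineage markers summed to 3201, 3118 and 3025 CPM in WT quiescent and 1164, 1199 and 1134 in activated astrocytes, with *Olig1* the most abundant. All activated libraries were lower, and of 10 tested 0 were called higher and 4 lower (*Olig1*, *Olig2*, *Gpr17* and *Cnp*), while *Mog* was at 0 reads in the quiescent ones. In SOD1G93A astrocytes these markers summed to 3603, 3355 and 3389 when quiescent and 1140.3, 1109 and 1185 when activated. The 14 neuron markers summed to 985, 1020.2 and 794 CPM in WT quiescent and 477, 525 and 526 in activated WT astrocytes. *Map2* made up 93.4% of the quiescent sum. Of 10 tested, *Tubb3*, *Nefl* and *Nefm* were called higher and *Map2* lower, and *Slc17a6* was at 0. The 14 microglia markers, with *Sall1* the most abundant, summed to 363, 437 and 523 CPM in WT quiescent and 398, 528 and 373 in activated WT astrocytes, with overlap and 0 of 13 called. The 8 endothelial markers, of which *Flt1* was tested and called higher, summed to 9.92, 11.0 and 14.7 CPM in WT quiescent and 137, 150.0 and 154 in activated astrocytes, with *Cldn5* and *Ly6c1* at 0 in both, *Tek* at 0 when quiescent and *Cdh5* at 0 when activated. *Flt1* alone made up 74.6% of the quiescent and 97.5% of the activated sum. The 10 pericyte and fibroblast markers, led by *Tagln*, summed to 129, 155 and 166 CPM in WT quiescent and 113, 129 and 99.8 in activated astrocytes. Of 6 tested, *Dcn* and *Lum* were called higher and *Acta2* and *Tagln* lower, and *Abcc9*, which is in both this list and that of potassium handling, was at 0 when activated. In SOD1G93A astrocytes the microglia markers, again led by *Sall1* with none at 0, summed to 599, 593 and 456 when quiescent and 449, 329 and 364 when activated, without overlap. Limma called 0 of 13 tested, but 11 had an unadjusted p under 0.05 and all 13 were lower, with a median log2 fold change of -0.67 (0.0002 in WT). Of all 12203 genes tested in that comparison, 6142 had such a p, of which 3065 were lower. The astrocyte markers there, led by *Slc1a3* with none at 0, summed to 6588, 6052 and 5334 and 5327, 5229 and 5353, with overlap, and of 13 tested *Gfap* was called higher and *Aldoc* and *Fgfr3* lower. The neuron markers, led by *Map2*, summed to 945, 1031 and 1030.0 and 462, 464 and 486, with *Slc17a6* at 0, and of 9 tested *Tubb3*, *Nefm* and *Syn1* were called higher and *Map2* lower. The endothelial markers, led by *Flt1*, which was tested and called higher, summed to 8.29, 8.96 and 7.90 and 118, 117 and 112, with *Cldn5*, *Cdh5* and *Ly6c1* at 0. *Flt1* made up 65.0% of the quiescent and 97.7% of the activated sum there. The pericyte and fibroblast markers, led by *Acta2* when quiescent and *Tagln* when activated, summed to 92.5, 92.5 and 79.9 and 79.3, 84.2 and 88.5, with *Abcc9* at 0 when activated, and of 5 tested *Pdgfrb*, *Dcn* and *Lum* were called higher and 0 lower. Before culture, microglia, endothelial cells and cells of the oligodendrocyte lineage had been taken out of the suspension on coated plates, and astrocytes had then been selected by HepaCAM. The part of other cells in the fall of the astrocyte channel genes was not tested.

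In microglia, the 14 microglia markers summed to 12696, 13176 and 12474 CPM in WT quiescent and 4821, 4524 and 4521 in WT LPS libraries, with *Csf1r* and then *Itgam* the most abundant and none at 0. The LPS libraries were far lower, and of 14 tested 0 were called higher and 9 lower with limma. The fall of the channel genes thus went with a fall of markers of the cell type, and its part in the result was not tested. The 14 astrocyte markers summed to 929, 930.0 and 879.9 in WT quiescent microglia, most of it *Glul*, and 373, 337 and 437 with LPS, with *Gjb6* at 0 in the first and *S100b* in the second. Of 11 tested, *Slc1a2* and *Gja1* were called higher and *Glul* lower. The 13 oligodendrocyte lineage markers summed to 1350.2, 1375 and 1390.1 and 145, 143 and 145. *Cspg4* alone made up 89.6% of the quiescent sum, and *Mog* was at 0 there. Of 6 tested, 0 were called higher and 2 lower (*Cspg4* and *Mbp*). The 14 neuron markers summed to 20.9, 17.3 and 18.7 in WT quiescent and 15.5, 11.2 and 17.8 in LPS microglia, led by *Map2*, with *Slc17a6* and *Nefl* at 0 in both and *Syt1* and *Rbfox3* at 0 with LPS, and 0 of 1 tested was called. The 8 endothelial markers summed to 67.4, 75.7 and 75.1 and 46.3, 56.1 and 50.9, with *Flt1* and then *Kdr* the most abundant and *Cldn5*, *Tek* and *Ly6c1* at 0. Of 3 tested, *Pecam1* and *Kdr* were called higher and *Flt1* lower. The 10 pericyte and fibroblast markers, led by *Acta2*, summed to 43.1, 40.8 and 38.9 and 51.2, 38.1 and 46.2, with *Rgs5* at 0 in the first and *Abcc9* in the second, and 1 of 6 tested (*Dcn*) was called higher. All 3 lists were low next to the microglial one. Of the 14 microglia markers, 13 were called higher in WT quiescent microglia than in astrocytes and *Sall1* was not, and 11 of 12 astrocyte markers tested were called lower.

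Promoter windows of 300 bases around gene starts annotated by RefSeq came from RefSeq (build GRCm38.p6), which holds 32851 such windows. They matched 29 of the 41 members. Members without an entry included *Kcna1*, *Kcnab3*, *Kcnd1*, *Kcnj11*, *Kcnk3*, *Kcnk6*, *Kcnn2*, *Kcnq3* and *Kcnt1*. Searched on both strands were the AP-1 motif TGANTCA (in 7.81% of all windows), the STAT motif TTCNNNGAA (8.3%), the PU.1 motif GAGGAAG (13.6%), the E-box CACGTG (7.15%), the GC box GGGCGG (35.7%) and the NF-κB consensus (5.8%). Over the 44 windows of the 29 members these shares were 4.55%, 6.82%, 18.2%, 6.82%, 50.0% and 9.09%. The last share stands for 4 windows. The median G and C content was 62.5% in the member windows and 52.7% over all windows, and its part in these shares was not tested. A match is a description of the letters and not a binding site. Shown are the windows of the 4 genes with an entry that fell together in LPS microglia, then that of *Kcnf1*, which rose in activated astrocytes, and those of *Kcnc1*, *Kcna2* and *Kcnc4*, which fell there. Capitals mark motif matches, and each is read 5′ to 3′ on the strand of the gene. The window of *Kcnj2* holds a PU.1 match, an E-box and 2 GC boxes, that of *Kcnn4* an E-box, an NF-κB match and a GC box, and that of *Kcnma1* 3 GC boxes, 2 of them overlapping. That of *Kcnc1* holds an NF-κB match that overlaps the first of 3 GC boxes, those of *Kcna2* and *Kcnc4* 1 GC box each, and those of *Kcnk13* and *Kcnf1* none of the 6 motifs. The coordinates are chr11:111065914-111066213 (plus strand) for *Kcnj2*, chr7:24370013-24370312 (plus strand) for *Kcnn4*, chr12:99964249-99964548 (plus strand) for *Kcnk13*, chr14:24004156-24004455 (minus strand) for *Kcnma1*, chr12:17176839-17177138 (minus strand) for *Kcnf1*, chr7:46396218-46396517 (plus strand) for *Kcnc1*, chr3:107101317-107101616 (plus strand) for *Kcna2* and chr3:107458849-107459148 (minus strand) for *Kcnc4*. The windows of *Kcnma1*, *Kcna2* and *Kcnc4* lie inside the GENCODE gene and do not hold its start.
Kcnj2: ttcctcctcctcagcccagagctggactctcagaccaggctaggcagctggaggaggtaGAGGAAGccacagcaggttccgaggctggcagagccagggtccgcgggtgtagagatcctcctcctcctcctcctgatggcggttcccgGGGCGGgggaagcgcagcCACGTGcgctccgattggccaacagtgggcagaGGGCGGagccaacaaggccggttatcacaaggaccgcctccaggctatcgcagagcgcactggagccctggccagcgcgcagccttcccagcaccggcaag
Kcnn4: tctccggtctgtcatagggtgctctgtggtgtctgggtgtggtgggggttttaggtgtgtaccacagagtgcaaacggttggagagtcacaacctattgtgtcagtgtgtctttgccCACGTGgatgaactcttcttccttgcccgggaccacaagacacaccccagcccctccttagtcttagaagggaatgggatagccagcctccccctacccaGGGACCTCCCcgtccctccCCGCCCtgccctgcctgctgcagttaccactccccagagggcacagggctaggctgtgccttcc
Kcnk13: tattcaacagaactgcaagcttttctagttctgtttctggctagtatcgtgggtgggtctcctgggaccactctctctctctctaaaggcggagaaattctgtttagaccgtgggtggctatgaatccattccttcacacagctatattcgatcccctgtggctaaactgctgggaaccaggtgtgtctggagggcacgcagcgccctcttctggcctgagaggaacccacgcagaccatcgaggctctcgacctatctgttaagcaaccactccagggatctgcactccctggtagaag
Kcnma1: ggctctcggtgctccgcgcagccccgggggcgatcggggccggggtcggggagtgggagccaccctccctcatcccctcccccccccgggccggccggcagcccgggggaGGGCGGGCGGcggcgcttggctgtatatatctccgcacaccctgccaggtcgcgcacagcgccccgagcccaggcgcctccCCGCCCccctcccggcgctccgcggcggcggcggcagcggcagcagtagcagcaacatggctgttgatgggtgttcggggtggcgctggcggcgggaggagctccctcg
Kcnf1: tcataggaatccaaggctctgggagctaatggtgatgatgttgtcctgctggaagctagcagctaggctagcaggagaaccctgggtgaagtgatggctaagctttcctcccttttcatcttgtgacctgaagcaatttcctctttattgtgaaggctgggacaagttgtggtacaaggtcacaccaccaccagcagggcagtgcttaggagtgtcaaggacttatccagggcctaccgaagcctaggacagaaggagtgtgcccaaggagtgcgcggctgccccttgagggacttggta
Kcnc1: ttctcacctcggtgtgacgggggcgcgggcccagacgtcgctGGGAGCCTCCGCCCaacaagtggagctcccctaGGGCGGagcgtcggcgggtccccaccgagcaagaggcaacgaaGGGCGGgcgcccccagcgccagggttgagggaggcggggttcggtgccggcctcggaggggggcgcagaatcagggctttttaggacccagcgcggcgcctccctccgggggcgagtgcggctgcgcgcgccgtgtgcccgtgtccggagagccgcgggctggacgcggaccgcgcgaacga
Kcna2: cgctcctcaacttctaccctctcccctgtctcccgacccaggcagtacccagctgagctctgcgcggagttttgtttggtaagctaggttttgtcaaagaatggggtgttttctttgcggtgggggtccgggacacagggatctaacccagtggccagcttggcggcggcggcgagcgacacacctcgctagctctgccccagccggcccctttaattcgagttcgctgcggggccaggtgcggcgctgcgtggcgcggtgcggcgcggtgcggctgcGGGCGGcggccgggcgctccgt
Kcnc4: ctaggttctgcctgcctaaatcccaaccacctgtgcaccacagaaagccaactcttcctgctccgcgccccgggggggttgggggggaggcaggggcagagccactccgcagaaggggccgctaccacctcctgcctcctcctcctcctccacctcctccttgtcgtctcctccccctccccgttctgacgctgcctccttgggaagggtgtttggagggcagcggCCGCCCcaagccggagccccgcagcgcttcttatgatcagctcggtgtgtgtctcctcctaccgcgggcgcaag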

How the data were processed

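The authors made polyA-enriched, strand-specific libraries, aligned paired-end reads to mm10 with STAR, counted genes with RSEM and used DESeq2. Their annotation is not stated. The deposited signal in 6 tables is normalized counts: the authors divided reads by a size factor of each comparison. Their further columns hold a p and an adjusted p, the test score behind them, a mean, and a log2 fold change with a standard error. They were not used. In units of the smallest value above 0 of its column, 100.0% of values were whole (tolerance 0.001), and these whole numbers were taken as reads.

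Each table was fitted with limma 3.58.1 (R 4.3.3, with trend) on log2 of normalized counts plus 1, for genes with a mean of at least 10, with p-values adjusted by Benjamini-Hochberg over all genes tested. Comparisons across tables used recovered reads with median-of-ratios size factors. Those that share a group share its libraries. On recovered reads, DESeq2 1.42.0 called 1536 genes in activated WT astrocytes and edgeR 4.0.16 called 1477. Exon lengths and coordinates came from GENCODE M21. The members and gene lists were chosen with earlier results of these data known. The alternatives were pseudocounts of 0.5 and 5, other filters, TMM and quantile scaling, limma without trend, a replicate block, a depth class term, an adjusted p under 0.05 and leaving out each library.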

Additional observations from a re-analysis of the deposited data

Results flagged for a closer look

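A test of the difference itself, the log2 response of WT microglia to LPS minus that of WT astrocytes to activation, was passed in limma by 7 of 35 members tested, 3 with a higher response in microglia (6.73% of all 12334 genes tested) and 4 with a lower one (8.44%). Of the 7, 5 were called with each library left out in turn. Quantile normalization gave 6 calls of a higher and 2 of a lower response in microglia, without *Kcnma1* and *Kcnn4*, which are 2 of those 5. The difference was -2.99 for *Kcnf1*, -2.89 for *Kcnn4*, -2.51 for *Kcnj2* and -2.49 for *Kcnma1*, whose response was lower in microglia. It was 1.37 for *Kcnab2*, 1.95 for *Kcna2* and 4.82 for *Kcnc4*, whose response was higher there. The stimuli, media, isolation, brain region and age differed as well as the cell types, and these cannot be told apart. *Kcna2*, *Kcnc4* and *Kcnf1* were under the minimum mean in microglia and *Kcnn4* in astrocytes, so the difference of these 4 rests on 1 cell type.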

How the results depend on the processing

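Counts of members called that moved by more than 1.5 times under another setting were these. At an adjusted p under 0.05 at any fold, 2 of 34 members differed by genotype in activated astrocytes in place of 0 (879 of all 12098 genes tested did), and 16 of 35 differed in response between the cell types in place of 7 (5052 of all 12334 did). With at least 10 normalized counts in every library, 5 members of 6 tested differed between the WT quiescent cell types in place of 31 (3855 of all 9702 genes tested), and 4 in place of 7 differed in response (1464 of all 9298). With a pseudocount of 5, 14 did (2241 of all 12334).

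With each library left out in turn, 9 to 15 members were called in activated WT astrocytes (16 with all libraries), 14 to 16 in activated SOD1G93A astrocytes (16), 5 to 6 in LPS microglia (5), 28 to 33 between the cell types (31) and 5 to 8 for the difference of responses (7). Over all genes tested, the same fits called 1087 to 1547 in WT and 1465 to 1611 in SOD1G93A astrocytes. They called 1991 to 2334 in LPS microglia, 5230 to 5575 between the cell types and 1593 to 1848 for the difference of responses. Under quantile normalization the 7 calls of 3 higher and 4 lower responses became 8, with 6 higher and 2 lower (1811 of all 12334 genes tested, in place of 1871). In activated WT astrocytes the count was 9 without WT quiescent replicate 2 (1134 of all 12344 genes tested) and 10 without WT activated replicate 1 (1087 of all 12320). In activated WT astrocytes limma without trend called 12 members, without *Kcnc4*, *Kcnd2*, *Kcnip1* and *Kcnmb4*, and a depth class term 14, without *Kcnk5* and *Kcnmb4*. Of all 12336 genes tested there, these settings called 1158 and 1407, in place of 1424. In SOD1G93A astrocytes limma without trend called 11, without *Kcnab3*, *Kcnh2*, *Kcnk1*, *Kcnn2* and *Kcnq5* (1371 of all 12203 genes tested, in place of 1604). Quantile normalization called 27 between the cell types, without *Kcna1*, *Kcnab2*, *Kcnh5* and *Kcnk10* (5343 of all 12064 genes tested, in place of 5702). *Kcnd1* was called in activated WT astrocytes by DESeq2, by edgeR and with a pseudocount of 5.

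With the replicate number as a block, 15 members were called in activated WT astrocytes (*Kcnk5* was lost), 16 in SOD1G93A astrocytes, 5 in LPS microglia, 31 between the cell types and 7 for the difference of responses. Over all genes tested, the block gave 1423 calls in WT and 1584 in SOD1G93A astrocytes. It gave 2201 in LPS microglia, 5768 between the cell types and 1854 for the difference of responses. For genotype in quiescent astrocytes, 4 members had an unadjusted p under 0.05 with the block, in place of 11. In activated WT astrocytes 4 of 6 libraries correlated best with the library of their own number, and in no comparison did every pair of equal number have a correlation over 0.1. For genotype in quiescent astrocytes the pairs numbered 1 and 3 had negative correlations, of -0.40 and -0.44. Reads on genes there were 2016139, 3637657 and 9258718 in WT and 9526331, 7251063 and 3292225 in SOD1G93A, so depth ran in opposite order.

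Followed over the settings were 84 pairs of a gene and a comparison, namely the 75 calls and 9 uncalled pairs of the genotype comparisons. Of 1505 fits in which such a gene was tested, 1428 gave the same result, 75 lost a call, 2 gained one and 0 changed direction. Calls gained by other members are not in these counts. A depth class term could not be fitted for genotype in activated astrocytes, since all 3 SOD1G93A libraries were shallower than the WT ones.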
